A study of Arabidopsis thaliana with 15 samples.

Results

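The genes described here are the UDP-glycosyltransferase genes of Arabidopsis thaliana, taken as the rows whose annotation text names a UDP-glucosyl transferase, UDP-glucosyltransferase or UDP-glycosyltransferase and whose gene code lies on chromosomes 1 to 5. The rule sets aside 5 anthocyanin and flavonol gene codes. Where a code had several rows, the row with the largest sum over all libraries was kept. This gave 124 genes of the 32580 gene codes in the table. Of these, 97 carry a UGT name, in 20 numbered subfamilies, and 27 do not. The rule does not take in every gene with a UGT name, and UGT73B4, UGT73C5, UGT74E2 and UGT75D1 are not among the 124. The label fits the 97 better than the 27. The 27 include genes whose products belong to other glycosyltransferase families, such as GBSS1 (starch synthesis), TPS6 (trehalose phosphate synthesis), DGD1 (galactolipid synthesis), SETH2 (glycosylphosphatidylinositol anchors) and LEW3 (protein glycosylation), and they are named as such below.

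The samples were leaves of 21-day-old plants of the Col-0 accession grown at 22 °C with 16 h of light a day. Each of the ubc22 mutant subtypes Type I, Type II, Type III and Type IV, and the wild type (WT), gave 3 RNA-seq libraries, 15 in all. UBC22 encodes a ubiquitin-conjugating enzyme, and all 4 mutant groups carry the same ubc22 mutation in the progeny of 1 mutant parent. They were sorted by leaf shape, with Type I like WT, Type II wide and round, Type III pale, long and narrow, and Type IV small with a serrated edge. The libraries are called biological replicates, and the number of plants behind each is not given, so a p-value here speaks only of the spread among libraries, which may be technical. UBC22 itself averaged 38.1% (Type I), 39.7% (Type II), 44.3% (Type III) and 45.7% (Type IV) of the WT level.

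UDP-glycosyltransferases move a sugar from a UDP-sugar onto a small molecule. In plants the acceptors include hormones, phenylpropanoids, flavonoids, glucosinolate precursors, sterols and foreign chemicals, and the sugar usually makes the product more soluble and fit for storage in the vacuole. The genes often stand in tandem rows of close relatives, so neighbouring genes can have acceptors that differ.

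Libraries held 8865955 to 13138977 reads in genes. The family took 0.192 ± 0.0049% of the reads of Type I, 0.202 ± 0.0076% of Type II, 0.161 ± 0.0042% of Type III, 0.177 ± 0.0047% of Type IV and 0.183 ± 0.0137% of WT (SD, n = 3 each). These shares include the 27 genes not named UGT. One of them, GBSS1, is among the strongest members and fell in Type III, so it weighs on the lower Type III share. The share of the 97 UGT-named genes alone was not computed. All 4 leaf marker genes were strong, with summed levels of 480205 to 705917, while summed root markers reached 1421, flower markers 83.4, seed markers 4.08 and the pollen marker 2.93 in any library. The root sum came almost wholly from PYK10, and it was 752 to 1193 in Type II, 861 to 1421 in Type III and 257 to 475 in WT. The flower sum was 38.4 to 58.4 in Type I, 8.02 to 11.4 in Type II and 43.3 to 83.4 in Type III. It was 14.3 to 19.2 in Type IV and 8.18 to 18.7 in WT. WT replicate 1 and Type IV replicate 3 stood apart from their groups in several family members, and results that turn on them are given without them. In such bulk samples, fewer cells of a type and less RNA per cell cannot be told apart.

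Of the 124 genes, 9 had no read in any library and 85 had reads in every library. Tests covered the 80 genes with a mean of at least 10 normalized reads over the 15 libraries. Among the other 44, 11 reached 10 in some library and the highest single value was 34.2. The minimum used the mean of all libraries, so a gene that is high in only a few could pass through them, and 17 of the 80 had at least 1 group mean under 10. A gene is called higher or lower where limma gave an adjusted p under 0.05, with the Benjamini-Hochberg adjustment made over the 17595 loci that entered the test, and fold changes are on the log2(normalized count + 1) scale.

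The strongest members in leaves were UGT89B1, GBSS1, UGT88A1, UGT74C1 and UGT74F2, by normalized reads per kilobase of exon. UGT89B1, an enzyme known to glucosylate flavonols and benzoates in vitro, led in every group, with 1593 ± 103 for Type I, 1335 ± 19.5 for Type II, 1364 ± 134 for Type III, 1670 ± 24.2 for Type IV and 1463 ± 146 for WT (SD, n = 3 each). It was called in no subtype against WT. GBSS1, the granule-bound starch synthase that makes amylose, had 130 ± 16.6 reads per kilobase in Type III, 375 ± 76.6 in Type IV and 756 ± 52.4 in WT. Its rank in the family was 17 in Type III, 3 in Type IV and 2 in WT. UGT74C1 ranked 13 in Type III, 7 in Type IV and 4 in WT, while UGT88A1 and UGT74F2, which glucosylates salicylic acid, kept ranks between 2 and 6 in all groups. UGT88A1 and UGT74F2 were called in no subtype, and neighbours in this order whose means lie within their SDs do not differ beyond their spread.

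**Figure D1:**
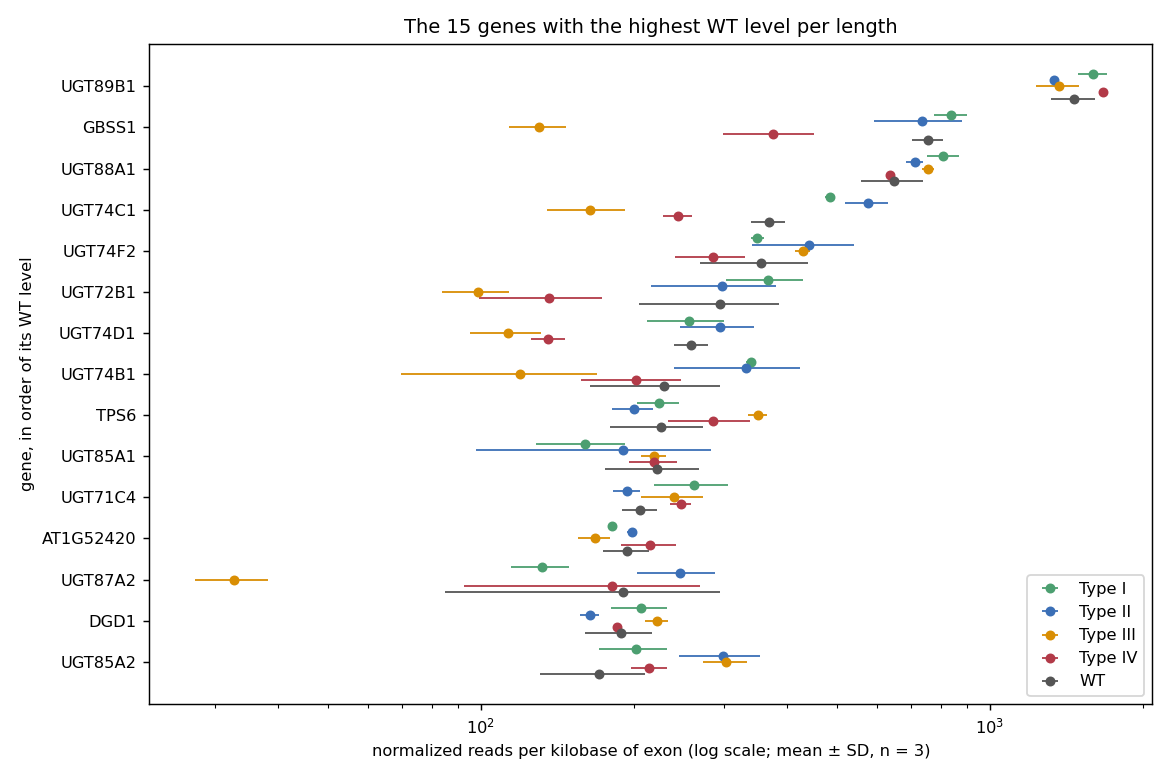
Level of the 15 genes with the highest WT value, in normalized reads per kilobase of exon on a log axis. Points are group means and bars the SD of 3 libraries, with Type I at the top and WT at the bottom of each row; GBSS1, UGT74C1, UGT72B1, UGT74D1, UGT74B1 and UGT87A2 are the genes whose Type III points lie far to the left of WT, and UGT89B1 leads in all 5 groups.

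Against WT, the called members numbered 0 for Type I (0.0739% of all loci were called), 11 for Type II (14.6%), 40 for Type III (47.6%) and 21 for Type IV (33%). In all, 48 of the 80 tested genes were called in at least 1 subtype and 32 in none. The share of all loci called in at least 1 subtype was not counted, so the 48 are not read as a result. In Type III, 18 were higher and 22 lower, which is 22.5% and 27.5% of those tested, against 24% and 23.6% of all loci. Type IV had 11 higher (13.8%, against 16% of all loci) and 10 lower (12.5%, against 17%). Type II had 10 higher (12.5%, against 10.2%) and 1 lower (1.25%, against 4.38%). These shares lie near the background, so the counts are not a result about the family, and what follows is which members moved. The median log2 fold change of the family was 0.16 for Type I, 0.16 for Type II, -0.01 for Type III and -0.02 for Type IV, where the medians of all tested loci were all within 0.03 of 0.

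**Figure D2:**
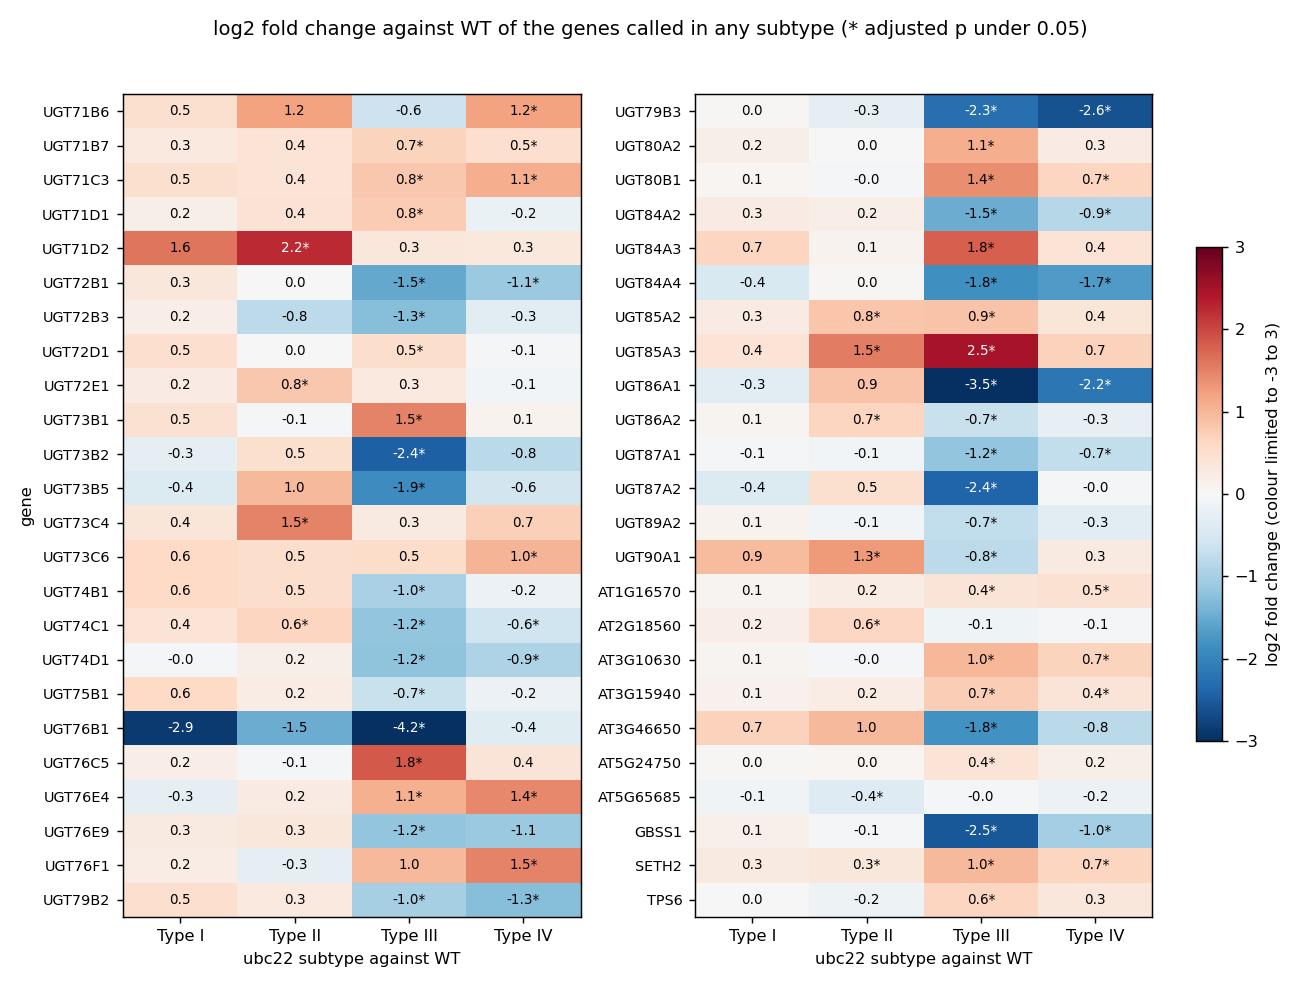
Log2 fold change against WT of the 48 genes called in any subtype, with 1 row per gene, the columns Types I to IV, and an asterisk at an adjusted p under 0.05. Type III holds most of the asterisks (40), Type I none, and UGT90A1, UGT86A2 and UGT74C1 are coloured oppositely in Types II and III.

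Type III leaves had lower levels of 3 of the 5 tested monolignol and sinapate genes and of both glucosinolate genes, and higher levels of both sterol glucosyltransferases. Of all loci 24% were higher and 23.6% lower in Type III, so counts over such short lists describe the genes named and are not a result about their roles. UGT84A2 (BRT1), which makes the glucose ester of sinapate, had 69.5, 67.5 and 88.7 normalized reads in Type III, 119, 103 and 127 in Type IV and 270, 190 and 183 in WT. UGT72B1, which conjugates monolignols and chlorinated pollutants, had 178, 235 and 192 in Type III, 209, 266 and 359 in Type IV and 814, 517 and 477 in WT. All 6 mutant libraries lay below all WT libraries for both genes, although WT replicate 1 was the highest library of its group for each. UGT84A2 fell by 1.49 ± 0.16 on the log2 scale in Type III (SE, adjusted p = 3.94e-06) and by 0.86 ± 0.16 in Type IV (adjusted p = 0.00106). UGT72B1 fell by 1.54 ± 0.24 in Type III (adjusted p = 0.000103) and by 1.11 ± 0.24 in Type IV (adjusted p = 0.00285). Of 8 monolignol and sinapate genes in the list, 5 were tested, of which 1 (UGT84A3) rose and 3 fell in Type III, and 3 fell in Type IV.

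Both glucosinolate genes fell in Type III. UGT74B1 and UGT74C1 add glucose to the sulfur of the thiohydroximate precursors. UGT74C1 had 234, 322 and 250 normalized reads in Type III, 397, 376 and 427 in Type IV and 612, 645 and 552 in WT. The 3 groups do not overlap, and the gene fell by 1.18 ± 0.11 in Type III (adjusted p = 1.57e-06) and by 0.59 ± 0.11 in Type IV (adjusted p = 0.0014). UGT74B1 had 147, 295 and 156 in Type III, against 506, 348 and 296 in WT. Its Type III replicate 2 lay just under the lowest WT library (295.3 against 296), and the gene fell by 0.98 ± 0.26 (adjusted p = 0.00686). In Type IV it was not called, at a log2 fold change of -0.17.

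Sterol glucosyltransferases UGT80A2 and UGT80B1 make steryl glucosides of membranes, and their loss is known for a seed coat phenotype. UGT80A2 had 630, 654 and 656 normalized reads in Type III, 380, 403 and 309 in Type IV and 268, 327 and 318 in WT. UGT80B1 had 336, 359 and 308 in Type III, 191, 225 and 188 in Type IV and 124, 118 and 141 in WT. For both genes all Type III libraries were above those of every other group, and for UGT80B1 the Type IV libraries stood between Type III and WT. UGT80A2 rose by 1.09 ± 0.12 in Type III (adjusted p = 4.62e-06) and was not called in Type IV (0.25 ± 0.12). It lies on chromosome 3, whose loci as a whole were higher in Type III. Its lowest log2 fold change in Type III over the alternative settings was 0.63. UGT80B1 rose by 1.38 ± 0.13 in Type III (adjusted p = 1.31e-06) and by 0.65 ± 0.13 in Type IV (adjusted p = 0.00179).

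**Figure D3:**
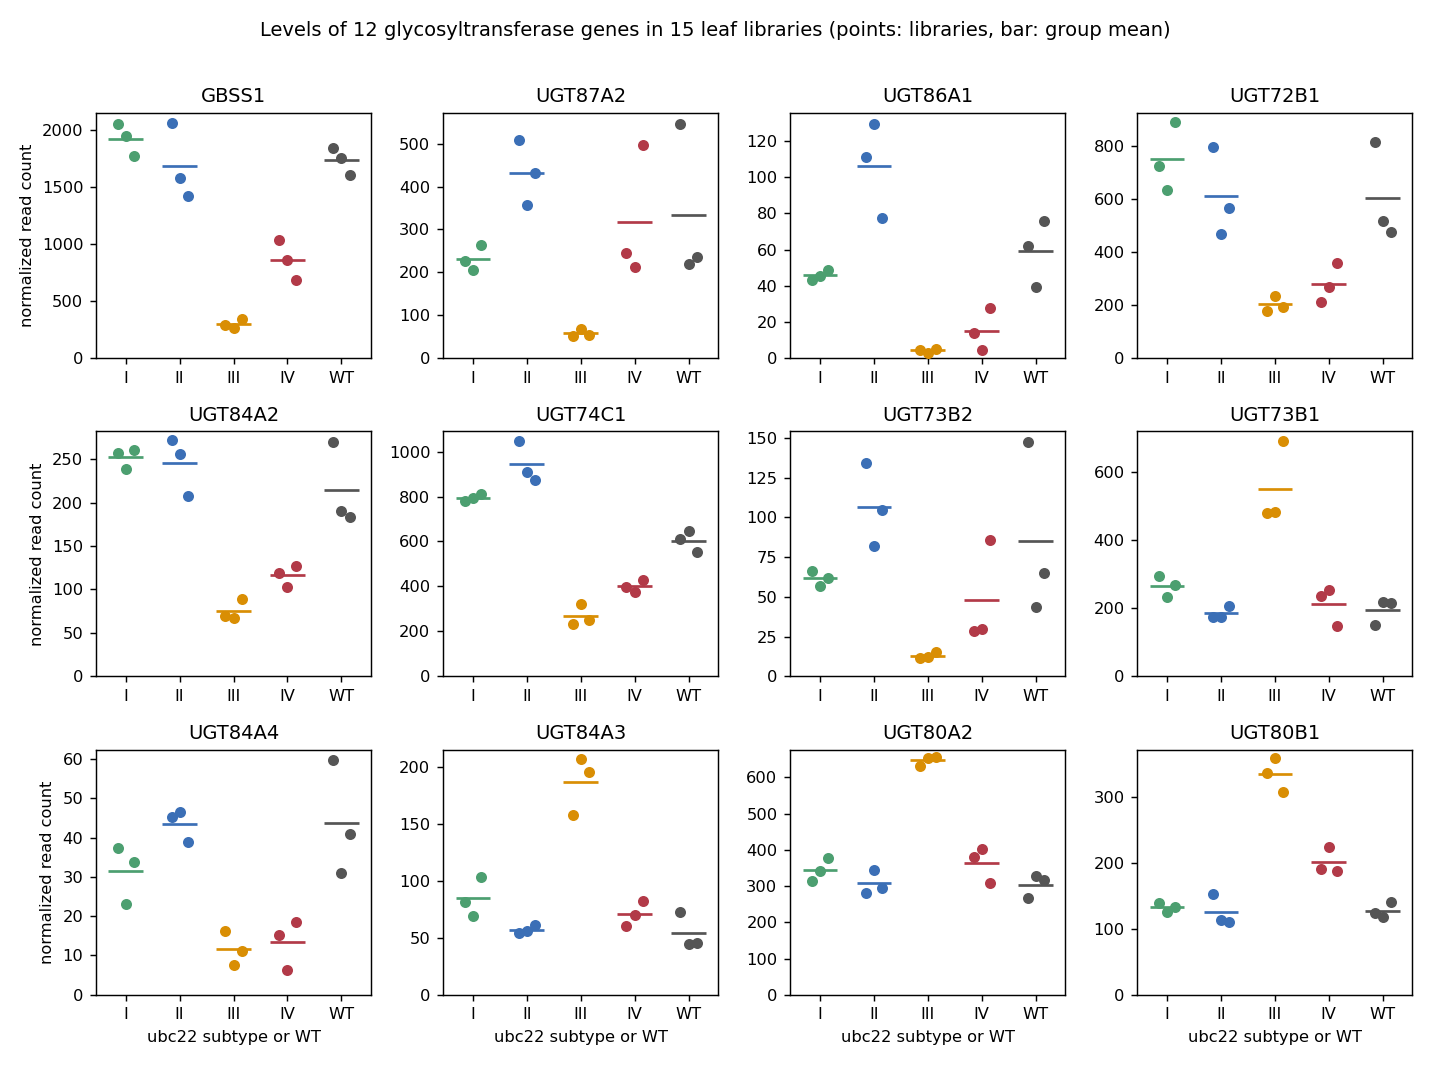
Normalized read counts of 12 genes in each of the 15 libraries, with Types I to IV to the left of WT; points are libraries, bars are group means and each vertical axis starts at 0. Type III lies below WT for GBSS1, UGT87A2, UGT86A1, UGT72B1, UGT84A2, UGT74C1, UGT73B2 and UGT84A4 and above it for UGT73B1, UGT84A3, UGT80A2 and UGT80B1, and the high single points are WT replicate 1 and Type IV replicate 3 in UGT87A2 and UGT73B2.

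Among genes for salicylic acid and benzoates, 5 of 7 were tested, and in Type III 1 rose and 3 fell, beside 24% of all loci higher and 23.6% lower. UGT71C3, which acts on methyl salicylate, rose by 0.80 ± 0.23 in Type III and by 1.09 ± 0.23 in Type IV. UGT89A2, which conjugates dihydroxybenzoates, fell by 0.74 ± 0.17 in Type III and was not called in Type IV (-0.33). UGT75B1, which forms the glucose ester of p-aminobenzoate, fell by 0.67 ± 0.22 in Type III, but its groups overlap, with 98.4, 135 and 178 normalized reads in Type III against 323, 186 and 161 in WT. UGT76B1, which glucosylates isoleucic acid and salicylic acid in defence, had 0, 2.81 and 1.02 in Type III, 6.37, 17 and 171 in Type IV and 148, 44.6 and 6.02 in WT. It varied widely within groups, with WT replicate 1 and Type IV replicate 3 far above their groups. The fall in Type III (-4.20 ± 1.27, adjusted p = 0.0133) was -3.18 with an adjusted p of 0.0621 without WT replicate 1.

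UGT87A2, known to affect flowering time through the repressor FLC, had 51.5, 68.4 and 53 normalized reads in Type III, 246, 213 and 497 in Type IV and 547, 220 and 236 in WT. Type III stood below every other group, while Type IV and WT overlapped. The gene fell by 2.4 ± 0.32 in Type III (adjusted p = 3.36e-05), and its neighbour UGT87A1, for which no role is given here, fell by 1.19 ± 0.16 in Type III and by 0.74 ± 0.16 in Type IV. UGT86A1, also without a stated role, had 4.51, 2.81 and 5.1 in Type III, 13.5, 4.26 and 27.4 in Type IV and 62, 39.1 and 75.8 in WT. It fell by 3.52 ± 0.45 in Type III (adjusted p = 2.1e-05) and by 2.16 ± 0.45 in Type IV (adjusted p = 0.00243), where 1 Type IV library lay within the range of Type III.

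The lists for auxin, cytokinin, abscisic acid, jasmonate and brassinosteroid genes together held 12 tested members. Of these 1 rose and 1 fell in Type III, where 47.6% of all loci were called, and 4 rose and 1 fell in Type IV, where 33% were. None was called in Type I or Type II. The cytokinin glucosyltransferases UGT76C1, UGT76C2 and UGT85A1 were tested and none was called in any subtype against WT, with log2 fold changes from -0.46 to 0.28. UGT74D1, which acts on auxin and on a jasmonate relative in vitro, fell by 1.20 ± 0.15 in Type III and by 0.93 ± 0.15 in Type IV. It had 206, 174 and 240 normalized reads in Type III, 260, 256 and 226 in Type IV and 430, 492 and 496 in WT, so both mutant groups lay below WT without overlap. Of 3 tested abscisic acid genes, UGT71B7 rose in Type III (0.68 ± 0.14) and in Type IV (0.49 ± 0.14), and UGT71B6 rose in Type IV (1.20 ± 0.41, adjusted p = 0.0357). In Type III UGT71B6 was not called, at a log2 fold change of -0.62. Besides UGT74D1, the tested jasmonate genes were called in no subtype. UGT76E1 had a log2 fold change of 0.50 in Type III and 0.69 in Type IV, UGT76E11 0.27 in Type III and -0.39 in Type IV, and UGT76E12 -0.41 in Type III and 0.33 in Type IV. UGT76C5, which conjugates nicotinate, had 195, 164 and 143 in Type III, against 19.9, 70.9 and 66.2 in WT. It rose by 1.84 ± 0.36, with WT replicate 1 the lowest library.

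Of the stress and flavonoid genes, UGT73B5, induced by pathogens and oxidative stress, had 9.03, 2.81 and 6.12 normalized reads in Type III and 25.7, 22.7 and 20.5 in WT, and fell by 1.88 ± 0.35. It shares 89.8% of its coding bases with UGT73B4, which is not among the genes taken here, so its value is uncertain. UGT79B2, which like UGT79B3 modifies anthocyanins in cold, fell by 1.00 ± 0.26 in Type III and by 1.28 ± 0.26 in Type IV. UGT79B3 fell by 2.26 ± 0.55 in Type III and by 2.60 ± 0.55 in Type IV. These neighbours share 96% of their coding bases, so reads could be split between them by the authors' counting and their separate values are uncertain. For UGT79B2 the Type III libraries (88.5, 154 and 78.5) overlap those of WT (292, 203 and 147), and those of Type IV (86, 84.1 and 82.1) do not. Of 4 tested flavonoid genes, 1 rose and 3 fell in Type III, where 47.6% of all loci were called, and 2 fell in Type IV, where 33% were.

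Among the 27 genes not named UGT, 22 were tested, of which 6 rose and 2 fell in Type III, beside 24% of all loci higher and 23.6% lower. GBSS1 had 289, 266 and 340 normalized reads in Type III, 1035, 862 and 684 in Type IV and 1842, 1753 and 1604 in WT. It fell by 2.54 ± 0.15 in Type III (adjusted p = 2.45e-08) and by 1.03 ± 0.15 in Type IV (adjusted p = 0.000238), with the 3 groups apart. SETH2, a subunit of the enzyme that starts glycosylphosphatidylinositol anchors, had 305, 275 and 332 in Type III, 264, 235 and 226 in Type IV and 155, 161 and 143 in WT. It rose by 0.98 ± 0.11 in Type III and by 0.65 ± 0.11 in Type IV, and it was called higher in Type II too. TPS6 rose by 0.65 ± 0.15 in Type III and was not called in Type IV (0.34).

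GBSS1 transcript is known to follow the time of day, and the clock genes moved beside these results. The morning gene CCA1 had 406 ± 28.9 normalized reads in Type III, 1935 ± 248 in Type IV and 2933 ± 321 in WT, and the later gene PRR5 had 782 ± 31.8 in Type III, 222 ± 151 in Type IV and 10.4 ± 1.1 in WT (SD, n = 3 each). No hour of harvest is given, and the part of the clock or of the hour in the members' differences was not tested.

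Some genes of the same tandem array were called in opposite directions in Type III. With gaps of at most 5 protein-coding genes, 71 of the 124 genes stood in 24 tandem arrays, the largest of 7 genes. In Type III 15 arrays held a called gene, and 3 of them held calls in both directions, beside 24% of all loci higher and 23.6% lower. Opposed calls among other neighbouring loci were not counted, so these counts are not a result about tandem arrays. In the UGT84A and UGT73B arrays the opposed genes are next to each other among the members. In the UGT76E array 3 members lie between them, and the call of UGT76E4 was lost in 21 of 28 alternatives. The UGT84A array on chromosome 4 holds genes for sinapate and other cinnamate esters. There UGT84A3 had 158, 207 and 196 normalized reads in Type III, 60.5, 70.3 and 82.1 in Type IV and 72.5, 44.6 and 45.7 in WT. Next to it, UGT84A4 had 16.2, 7.5 and 11.2 in Type III, 15.1, 6.39 and 18.6 in Type IV and 59.6, 30.9 and 40.9 in WT. For UGT84A3 all Type III libraries lay above all WT libraries and 2 of the 3 Type IV libraries lay within the WT range, whereas UGT84A4 stood below WT in both Type III and Type IV. UGT84A3 rose by 1.79 ± 0.20 in Type III (adjusted p = 5.67e-06) and was 1.39 ± 0.20 lower in Type IV than in Type III on the log2 scale (adjusted p = 0.000178). UGT84A4 fell by 1.83 ± 0.36 in Type III (adjusted p = 0.00083) and by 1.71 ± 0.36 in Type IV (adjusted p = 0.00276). Their coding sequences are 81.4% identical.

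In the UGT73B array, also on chromosome 4, UGT73B1 had 479, 481 and 691 normalized reads in Type III, 236, 254 and 149 in Type IV and 150, 217 and 215 in WT. Its neighbour UGT73B2, a flavonoid glucosyltransferase of stress and redox responses, had 11.7, 12.2 and 15.3 in Type III, 28.7, 29.8 and 86.1 in Type IV and 147, 43.6 and 65 in WT. Both genes set Type III apart from every other group, in opposite directions, and Type IV overlapped WT for each. UGT73B1 rose by 1.5 ± 0.20 (adjusted p = 3.62e-05) and UGT73B2 fell by 2.44 ± 0.41 (adjusted p = 0.000232), while UGT73B3, at 3.61 to 10.3 in Type III and 4.81 to 12.9 in WT, was not called. In the UGT76E array on chromosome 3, UGT76E4 rose (1.06 ± 0.42) and AT3G46650 fell (-1.81 ± 0.33). By contrast, both called genes rose in the UGT85A array, UGT85A2 by 0.85 ± 0.17 and UGT85A3 by 2.48 ± 0.40. In the array of UGT74D1 and UGT74C1, in that of UGT87A1 and UGT87A2 and in that of UGT79B2 and UGT79B3, both genes fell.

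**Figure D4:**
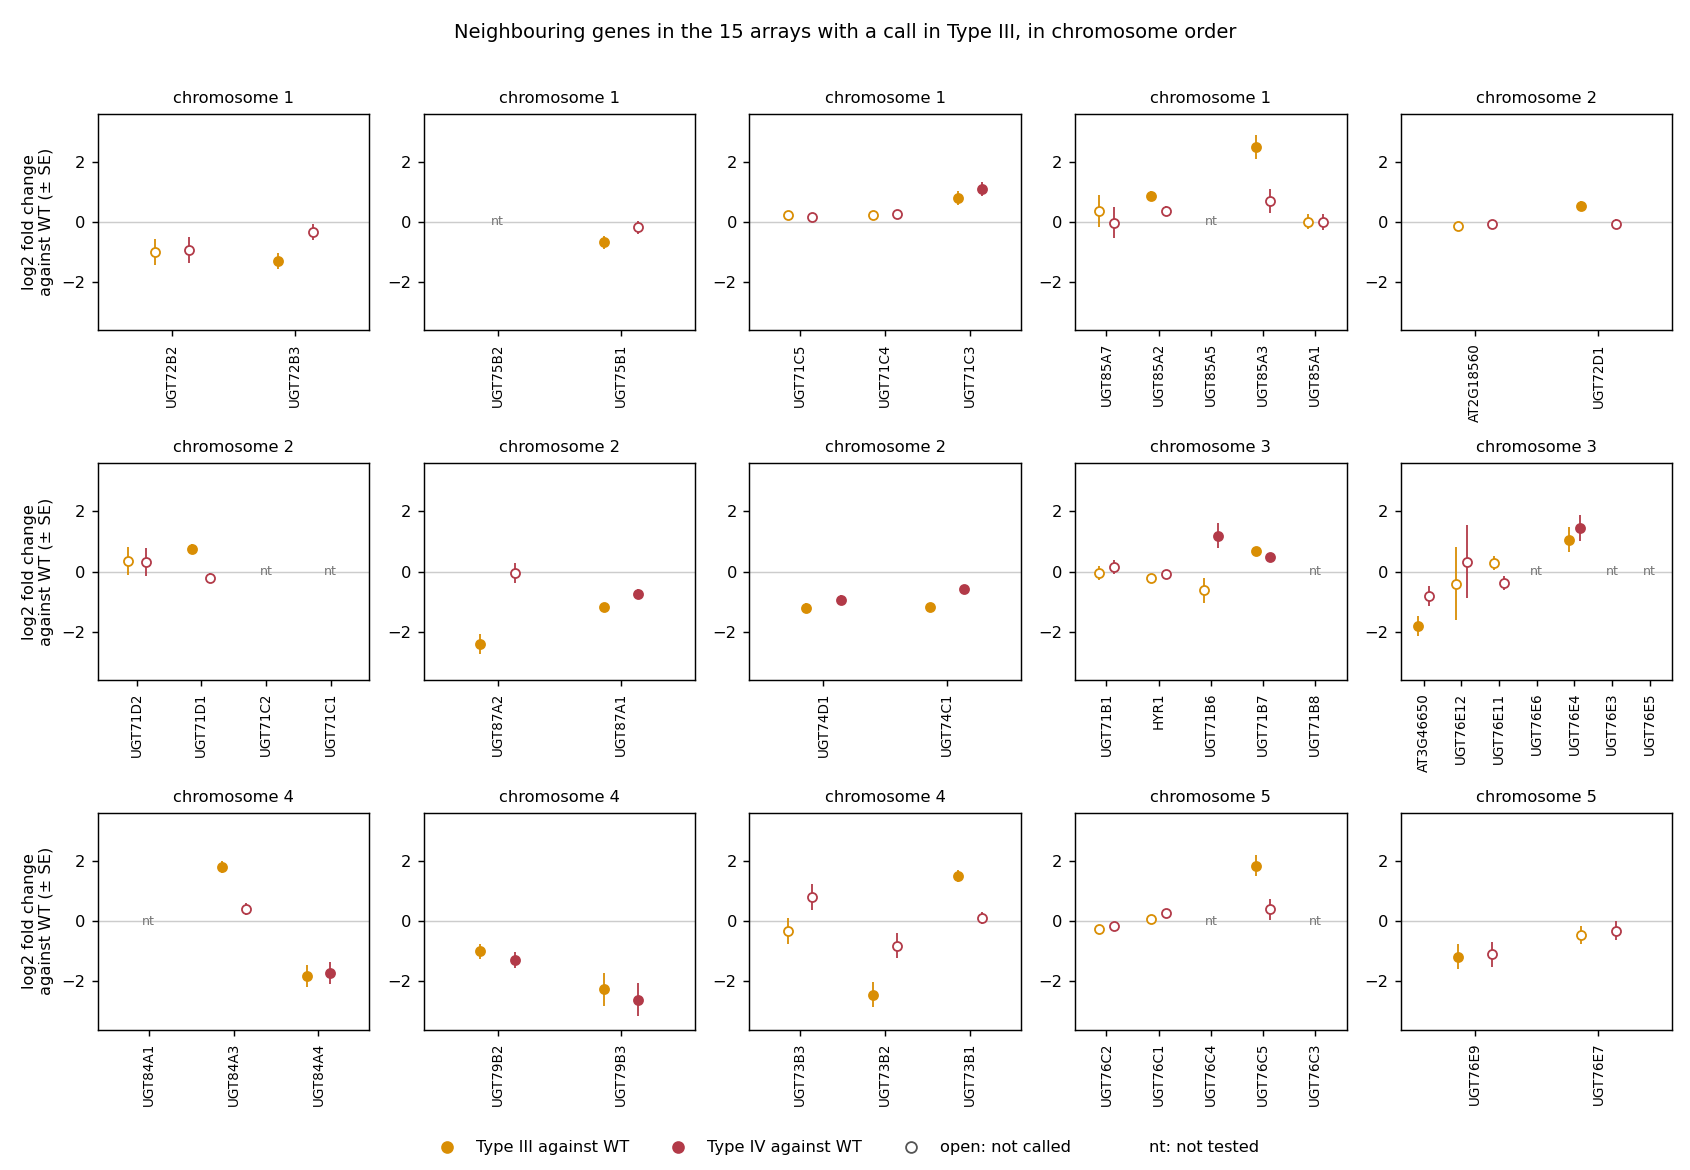
Log2 fold change against WT, with its SE, of the genes in the 15 tandem arrays that hold a call in Type III, in chromosome order within each panel. Filled points are called, open points are not, nt marks genes not tested, and Type III stands left of Type IV; UGT84A3 with UGT84A4, UGT73B1 with UGT73B2, and UGT76E4 with AT3G46650 lie on opposite sides of 0 in Type III.

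The bases before the annotated gene start of UGT84A4, UGT73B2, UGT80B1 and UGT85A3 are shown as examples. These genes were called in opposite directions beside a neighbour, or rose in Type III, and their windows hold a word searched for. Each is 300 bases long, 5′ to 3′ in the direction of the gene, from RefSeq TAIR10.1. Capitals mark a W-box core (TTGACC, read as GGTCAA on the other strand), an evening element (AAATATCT), a CCA1-binding site (AAAAATCT) or a G-box (CACGTG), searched on both strands. The windows are chr4:8858679-8858978 for UGT84A4, chr4:16347435-16347734 for UGT73B2, chr1:16430288-16430587 for UGT80B1 and chr1:7902428-7902727 for UGT85A3, all on the minus strand, and no other annotated gene overlaps them.
UGT84A4: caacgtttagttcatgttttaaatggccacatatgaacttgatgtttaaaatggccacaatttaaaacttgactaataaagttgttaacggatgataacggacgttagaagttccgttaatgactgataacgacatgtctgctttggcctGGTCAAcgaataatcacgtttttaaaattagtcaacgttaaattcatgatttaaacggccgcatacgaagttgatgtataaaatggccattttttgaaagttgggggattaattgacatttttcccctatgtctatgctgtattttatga
UGT73B2: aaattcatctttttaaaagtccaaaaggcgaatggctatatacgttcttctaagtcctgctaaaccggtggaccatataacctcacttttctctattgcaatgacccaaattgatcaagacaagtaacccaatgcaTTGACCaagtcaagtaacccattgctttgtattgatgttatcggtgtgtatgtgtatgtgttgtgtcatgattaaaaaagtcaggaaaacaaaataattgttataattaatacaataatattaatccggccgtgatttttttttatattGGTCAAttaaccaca
UGT80B1: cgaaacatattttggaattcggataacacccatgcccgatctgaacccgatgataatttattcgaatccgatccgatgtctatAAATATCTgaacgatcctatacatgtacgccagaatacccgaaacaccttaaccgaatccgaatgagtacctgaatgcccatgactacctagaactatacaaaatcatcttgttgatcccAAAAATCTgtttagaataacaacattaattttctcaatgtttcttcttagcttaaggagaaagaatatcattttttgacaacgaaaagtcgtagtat
UGT85A3: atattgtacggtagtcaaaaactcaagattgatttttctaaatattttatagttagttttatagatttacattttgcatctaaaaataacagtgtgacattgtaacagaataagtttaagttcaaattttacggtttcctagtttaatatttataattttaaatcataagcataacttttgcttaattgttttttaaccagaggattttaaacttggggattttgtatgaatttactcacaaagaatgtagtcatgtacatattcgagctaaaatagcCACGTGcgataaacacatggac
The UGT84A4 window holds a W-box core, UGT73B2 has 2 such cores, UGT80B1 has an evening element and a CCA1-binding site, and UGT85A3 has a G-box next to its start. The windows of the opposed neighbours UGT84A3 and UGT73B1 are not shown.

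Across the family these words were about as frequent as elsewhere. The evening element was found before 4.03% of the 124 genes and before 5.64% of 27443 protein-coding genes, and the CCA1-binding site before 5.65% of the family and 7.94% of all genes. The W-box core was found before 12.1% of the family and 14% of all genes, and the TGA core (TGACGT) before 11.3% of the family and 8.72% of all genes. The G-box was found before 8.87% of the family and 7.09% of all genes. Before the 22 members lower in Type III the W-box core stood in 9.09%, and before the 18 higher ones in 5.56%. The evening element and the CCA1-binding site each stood before 5.56% of the higher and 4.55% of the lower members. For the G-box these shares were 22.2% and 0%. They rest on few genes and were not tested.

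Of the 40 calls in Type III, 33 were kept whichever library was left out. Without WT replicate 1, UGT76B1, UGT75B1 (adjusted p = 0.106), AT1G16570 (0.056), UGT90A1 (0.101) and UGT76E9 (0.089) were no longer called, and without Type III replicate 1, UGT75B1 (0.115), AT1G16570 (0.0933), UGT90A1 (0.0511), UGT76B1 (0.0518) and UGT76E4 (0.0963) were not. Leaving out Type III replicate 2 ended the calls of UGT90A1 (0.0557), AT5G24750 (0.0583) and UGT76E9 (0.15), and UGT76E4, at an adjusted p of 0.0492, was lost when any 1 of 11 libraries was left out (0.0515 to 0.186). On the recovered reads UGT76E4 was not called with edgeR (adjusted p = 0.0609), DESeq2 (0.113) or limma-voom (0.0508), nor with TMM scaling in limma (0.0514). DESeq2 did not call UGT76E9 (0.0768) or AT5G24750 (0.0583), and limma-voom did not call UGT90A1 (0.0593) or UGT76B1 (0.0983). UGT76E9 is 91.7% identical to AT5G37950, so its reads are uncertain too.

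In Type IV the 10 lower genes were UGT79B3, UGT86A1, UGT84A4, UGT79B2, UGT72B1, GBSS1, UGT74D1, UGT84A2, UGT87A1 and UGT74C1. The 11 higher genes were UGT76E4 (1.45 ± 0.42), UGT71C3, AT3G10630 (0.66 ± 0.13), SETH2, UGT80B1, UGT71B7, AT1G16570 (0.47 ± 0.13), AT3G15940 (0.39 ± 0.09), UGT71B6, UGT76F1 and UGT73C6. The comparisons of Type III and of Type IV with WT share the WT libraries, so like directions in both are not read as a result.

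UGT76F1, an auxin-precursor glucosyltransferase, had 15.9, 11.7 and 34.2 normalized reads in Type IV and 11.7, 3.64 and 4.81 in WT. It rose by 1.49 ± 0.46 (adjusted p = 0.0234), and the groups nearly touch. Its levels lie near the minimum mean of 10, so it could have entered the test through its high Type IV libraries. The call is to be read with that limit. UGT73C6, which acts on brassinosteroids and flavonols, had 35, 47.9 and 52.8 in Type IV and 15.2, 22.7 and 28.9 in WT, without overlap. It rose by 1.01 ± 0.29 (adjusted p = 0.0156). UGT73C5 (AT2G36800), which is not among the genes taken here, shares 91% of the coding bases of UGT73C6, so the value of UGT73C6 is uncertain. UGT71B6 had 32.6, 37.3 and 51.8 in Type IV against 30.4, 9.09 and 16.9 in WT, where WT replicate 1 came close to the lowest Type IV library.

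Leaving out Type IV replicate 3 ended the calls of UGT73C6 (adjusted p = 0.0513), UGT71B6 (0.107) and UGT76F1 (0.103), and leaving out WT replicate 2 those of UGT71B6 (0.167) and UGT76F1 (0.0979). Without Type IV replicate 2, AT1G16570 (0.0659), UGT71B6 (0.0659), UGT71B7 (0.0545) and UGT76E4 (0.0847) were not called, without WT replicate 3 UGT71B6 (0.0756), UGT76E4 (0.0722) and UGT76F1 (0.0725) were not, and without WT replicate 1 UGT73C6 (0.0616) was not. UGT71B6 also missed without Type IV replicate 1 (0.0537), and 15 of the 21 calls were kept whichever library was left out.

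Set directly against Type III, Type IV had 18 members higher (22.5%, against 15.2% of all loci) and 15 lower (18.8%, against 19.4%). UGT87A2 was 2.35 ± 0.32 higher in Type IV (adjusted p = 0.000134), GBSS1 1.51 ± 0.15 higher (adjusted p = 1.1e-05), UGT73B1 1.38 ± 0.20 lower (adjusted p = 0.000223) and UGT80A2 0.84 ± 0.12 lower (adjusted p = 0.000162). UGT74D1 and UGT72B1 were not called between them, at 0.27 ± 0.15 and 0.44 ± 0.24. UGT73B1, like UGT84A3 above, lies on chromosome 4. Its loci had a median log2 fold change against WT of -0.41 in Type IV and -0.12 in Type III. For chromosome 3, which holds UGT80A2, these medians were 0.11 and 0.48. The part of these shifts in the differences is not given for these genes.

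Type II leaves had 10 members higher and AT5G65685, not named UGT, lower (-0.38 ± 0.09). UGT71D2, without a stated role, had 30.1, 31 and 60 normalized reads in Type II and 5.85, 9.09 and 7.22 in WT, and rose by 2.25 ± 0.46 (adjusted p = 0.00519). UGT90A1 had 63.2, 57.9 and 51.7 in Type II and 32.7, 17.3 and 21.7 in WT, and rose by 1.28 ± 0.25 (adjusted p = 0.00413). For both genes all Type II libraries lay above all WT libraries. UGT71D2 shares 89.8% of its coding bases with its neighbour UGT71D1, so its value is uncertain. UGT72E1, which glucosylates monolignol aldehydes, had 329, 179 and 272 in Type II and 137, 150 and 146 in WT, and rose by 0.80 ± 0.22 (adjusted p = 0.0241). UGT85A2 rose by 0.82 ± 0.17 and UGT85A3 by 1.54 ± 0.40. UGT73C4 rose by 1.49 ± 0.32, and as 91.3% of its coding bases match UGT73C3 its value is uncertain. AT2G18560 (0.62 ± 0.10), UGT74C1 (0.64 ± 0.11), UGT86A2 (0.65 ± 0.16) and SETH2 (0.35 ± 0.11) complete the 10.

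In Type II 6 of the 10 higher members lie on chromosome 2 and 4 do not. Of 17 tested members on chromosome 2, 6 rose (35.3%, against 51.4% of all 2659 chromosome 2 loci), and their median log2 fold change was 0.53, against 0.50 for all loci there. Elsewhere 4 of 63 rose (6.35%) and 1 fell (1.59%). The shares of loci off chromosome 2 were not counted. With chromosome 2 included, 10.2% of all loci were higher and 4.38% lower, so these few calls are not read as a result. When each library was centred per chromosome, UGT85A2 alone of the 11 stayed called (0.88, adjusted p = 0.0165). The other called members off chromosome 2 had log2 fold changes close to those above, with 1.59 for UGT85A3 (adjusted p = 0.0509), 0.86 for UGT72E1 (0.0524), 0.40 for SETH2 (0.0604) and -0.30 for AT5G65685 (0.0625). On chromosome 2, UGT74C1 then had a log2 fold change of 0.13, UGT86A2 0.14 and AT2G18560 0.11, whereas UGT71D2 kept 1.74, UGT90A1 0.77 and UGT73C4 0.98 with adjusted p of 0.064, 0.104 and 0.114. SETH2 missed when any 1 of 9 libraries was left out (adjusted p = 0.0504 to 0.147), and also with TMM scaling (0.0507), DESeq2 (0.0692) and limma-voom (0.0588). UGT72E1 missed without Type II replicate 1 (0.104), Type II replicate 3 (0.0813), WT replicate 2 (0.0543) or WT replicate 3 (0.0639), UGT85A3 without WT replicate 1 (0.0557) or Type II replicate 3 (0.0795), and UGT86A2 without WT replicate 3 (0.0534).

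Chromosome shifts touched the other subtypes less evenly. In Type III loci of chromosome 3 lay 0.58 above the others, and of 19 tested members there 6 rose (31.6%, against 56.6% of loci) and 3 fell (15.8%, against 5.83%), with a median of 0.24 against 0.48. Centring per chromosome ended the Type III calls of UGT71B7 (0.22, adjusted p = 0.213) and UGT76E4 (0.61, 0.263), both on chromosome 3, and of UGT75B1 (-0.55, 0.0517) and UGT76E9 (-1.03, 0.0564). UGT80A2, AT3G10630, SETH2 and AT3G15940, also higher and on chromosome 3, kept an adjusted p under 0.05 in every alternative, centring included. Their lowest log2 fold changes over the alternatives were 0.63, 0.53, 0.52 and 0.29. In Type IV loci of chromosome 4 lay 0.47 below the others. Of 10 tested members there 4 fell (40%, against 48.9% of loci) and none rose (against 3.07%), with a median of -0.60. The 4 were UGT72B1, UGT84A4, UGT79B2 and UGT79B3. Off chromosome 4, 11 of 70 rose (15.7%, against 18.3% of loci) and 6 fell (8.57%). The share of loci off chromosome 4 that fell was not counted, and with chromosome 4 included 17% of all loci were lower. With centring per chromosome, Type IV against WT had 9 members higher and 13 lower. It ended the Type IV calls of AT1G16570 (0.36, adjusted p = 0.0544), AT3G15940 (0.26, 0.0511), UGT71B6 (1.06, 0.0651) and UGT71B7 (0.36, 0.0651). UGT72B1, UGT84A4, UGT79B2 and UGT79B3 stayed called as lower.

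**Figure D5:**
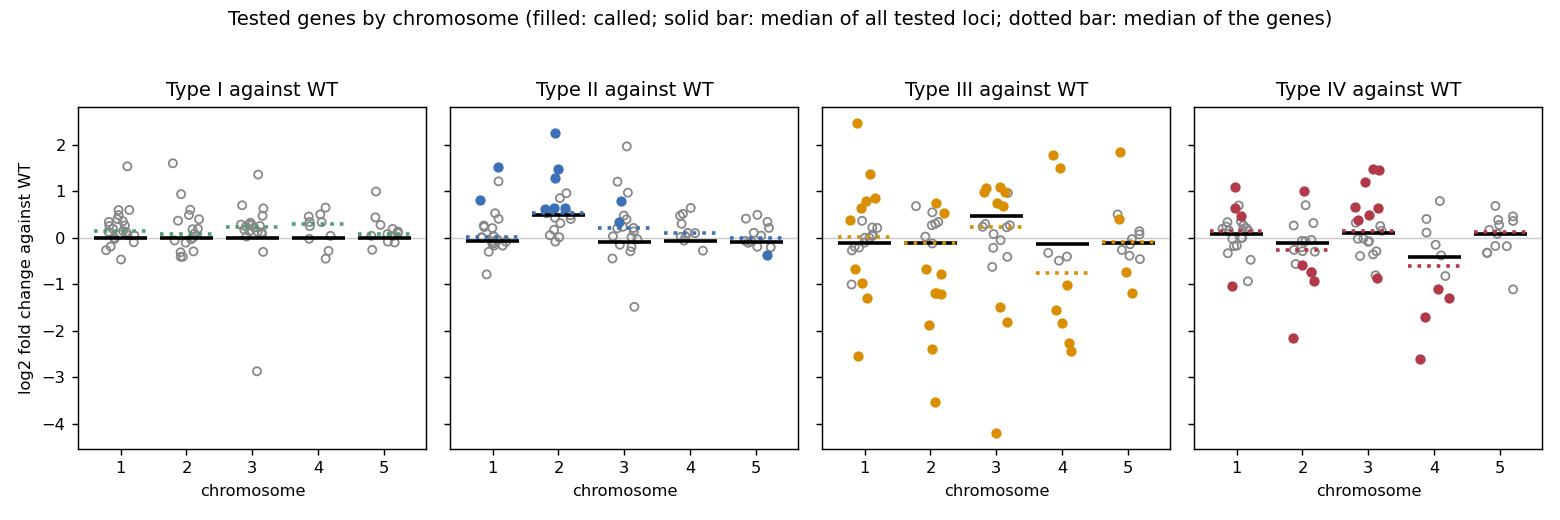
Log2 fold change against WT of the 80 tested genes by chromosome, 1 panel per subtype; filled points are called, solid bars are medians of all tested loci and dotted bars medians of the family. In Type II both bars lie near 0.50 on chromosome 2, in Type III the bar of all loci is raised on chromosome 3, and in Type IV both bars lie below 0 on chromosome 4.

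Type I leaves, which look like WT, had no called member with limma, and none with edgeR, DESeq2 or limma-voom on the recovered reads. At all loci 0.0455% were higher and 0.0284% lower. At an unadjusted p under 0.05 there were 20 members (of 80), where 14.5% of all loci passed. Without WT replicate 1, UGT88A1 (0.44, adjusted p = 0.0401) and UGT71B1 (1.01, adjusted p = 0.00857) were called higher. UGT71B1 had 375, 353 and 417 normalized reads in Type I and 412, 193 and 185 in WT, so it was the high value of WT replicate 1 that overlapped Type I.

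Between the mutant subtypes, Type II against Type I had 6 members higher (7.5%, against 9.45% of loci) and 7 lower (8.75%, against 4.81%). Type III against Type I had 15 higher (18.8%, against 21.3%) and 28 lower (35%, against 20.3%), and Type IV against Type I had 6 higher (7.5%, against 12.7%) and 18 lower (22.5%, against 15.1%). Type III against Type II had 16 higher (20%, against 25.3%) and 27 lower (33.8%, against 26.3%), and Type IV against Type II had 9 higher (11.2%, against 19.5%) and 25 lower (31.2%, against 22.3%). Scaling to library totals alone moved these splits, to 6 higher and 1 lower in Type II against Type I, 11 higher and 15 lower in Type IV against Type I, 11 higher and 34 lower in Type III against Type II, and 25 higher and 10 lower in Type IV against Type III. Centring per chromosome gave 3 higher and 19 lower in Type IV against Type I, and 0 higher and 1 lower in Type II against Type I. In Types III and IV, set against Types I and II, lower calls took a larger share of the family than of all loci with the deposited scaling, a difference that was not tested.

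The supply of UDP-sugars was read from a list of 21 genes, of which 19 were in the table and 18 were tested. In Type I none was called, in Type II 1 rose and 2 fell (14.6% of all loci were called), in Type III 4 rose and 4 fell (47.6%), and in Type IV 2 rose and 4 fell (33%). These counts lie near the background and are not a result about the list. UGE1, a UDP-glucose epimerase, had 3708, 3475 and 4089 normalized reads in Type III, 2542, 2874 and 1630 in Type IV and 668, 1107 and 1081 in WT. RHM1, which makes UDP-rhamnose, had 549, 519 and 558 in Type III, 876, 833 and 1049 in Type IV and 2376, 1619 and 1396 in WT. For both genes Types III and IV lay wholly to the same side of WT. UGE1 rose by 2.01 ± 0.23 in Type III and by 1.3 ± 0.23 in Type IV, and RHM1 fell by 1.69 ± 0.19 in Type III and by 0.94 ± 0.19 in Type IV.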

How the data were processed

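Total RNA of leaves was sequenced after a TruSeq RNA v2 preparation, per the labels' protocols, which does not mark strand, so reads of overlapping antisense genes cannot be told apart. The submitters' processing notes name TAIR10, DESeq2 1.12.4, HTSeq 0.6.0, StringTie 1.0.3 and STAR 2.4.0j without roles. The deposited table gives 1 normalized signal value per locus and library for 34307 loci: read counts divided by a size factor, by the authors. Each value is a whole multiple of 1 step per library (100% within a tolerance of 1e-06), so whole reads were recovered. All 15 columns were mapped to labels, 2 through a slip in the name.

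The plan named limma for values divided by size factors and the quasi-likelihood test of edgeR for raw counts. The deposited values are of the first kind, so limma 3.58.1 in R 4.3.3 with a mean-variance trend was used on log2(normalized count + 1). Loci whose mean reached 10 were kept, with all libraries in 1 fit for 10 comparisons. The edgeR 4.0.16 test and DESeq2 1.42.0 were run as alternatives on recovered reads. Loci without a gene code held 0.136% of reads. The fit was tested on simulated data. Other alternatives were scalings, minimum values, pseudocounts of 0.5 and 5, stricter thresholds, and leaving out each library; comparisons among Types II, III and IV were added after seeing the data. Positions, exon lengths, coding identity (BLAST 2.17.0) and upstream bases came from RefSeq TAIR10.1.

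The members, role lists (51 names, 47 of them members, 33 tested) and rules were chosen with earlier results of these data known. Genes named are called members whose groups do not overlap (up to 8 in each direction and subtype, by size), called members of a role list, the 5 highest per length in WT, and members called in opposite directions; further called members are named where a count of them is given.  Some upstream sequence is not reported here.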

Additional observations from a re-analysis of the deposited data

Results flagged for a closer look

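UGT90A1, UGT86A2 and UGT74C1 were called higher in Type II and lower in Type III against the same WT libraries, and the test between the subtypes differed as well. The log2 fold change of Type III against Type II was -2.06 for UGT90A1, -1.32 for UGT86A2 and -1.82 for UGT74C1. That of Type IV against Type II was -1.23 for UGT74C1, which was also lower than WT in Type IV. The normalized reads of UGT90A1 were 12.6, 12.2 and 14.3 in Type III against 63.2, 57.9 and 51.7 in Type II, and those of UGT86A2 were 69.5, 82.5 and 62.2 in Type III against 174, 191 and 171 in Type II. All 3 genes lie on chromosome 2, whose loci as a whole were higher in Type II, and the part of that shift was tested only by centring per chromosome, given above.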

How the results depend on the processing

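No paired analysis was possible because the labels give no replicate numbers shared between groups. The number of members called stayed within 1.5 times its value above under edgeR, DESeq2, limma-voom, TMM scaling, other pseudocounts, no minimum, and a fit that held just the compared groups. The genes called could still change. With limma on just the compared groups, Type II lost UGT85A3 (adjusted p = 0.0799), UGT72E1 (0.054), SETH2 (0.11) and AT5G65685 (0.0697). Type III lost UGT75B1 (0.0878), UGT90A1 (0.0631), UGT76E4 (0.0689) and UGT76E9 (0.0995). Type IV lost AT1G16570 (0.0664), UGT71B6 (0.0737), UGT76E4 (0.0705) and UGT76F1 (0.08). No log2 fold change of a called member changed sign in any alternative. For Type II against WT (11 above) the number of members called was 1 with centring per chromosome, 7 with a minimum mean of 50, 7 at an adjusted p under 0.01 and 4 at a log2 fold change of at least 1. A log2 fold change of at least 1 left 24 for Type III and 11 for Type IV against WT, 2 for Type II, 28 for Type III and 11 for Type IV against Type I, 17 in Type IV against Type II and 14 in Type IV against Type III. An adjusted p under 0.01 left 2 in Type II and 13 in Type IV against Type I, and 16 in Type IV against Type III. Type II against Type I had 7 with scaling to library totals and 1 with centring, and Type IV against Type II had 21 with centring. These stricter rules give fewer calls by construction; for the scalings the cause was not tested. With each library left out in turn, the counts against WT ran from 0 to 2 for Type I, 8 to 16 for Type II, 35 to 42 for Type III and 18 to 28 for Type IV. They ran from 3 to 17, 35 to 45 and 16 to 32 for Types II, III and IV against Type I, 39 to 49 and 26 to 37 for Types III and IV against Type II, and 19 to 37 for Type IV against Type III. Leaving out WT replicate 1 gave 16 in Type II, of which 9 were among the 11. Depth limits the 44 untested members, for which a difference was not detectable here.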
